A study of Rattus norvegicus with 18 samples.

Results

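The type I interferon response genes examined here are a list of 55 symbols for genes that act in, or are induced by, the interferon system. They name 54 different genes, because Rigi is a newer symbol of Ddx58. A gene entered where a probe set carried its symbol alone in the platform annotation, and the probe set with the highest mean was to stand for the gene. This gave 45 genes, each with 1 probe set, among 14324 genes with a single symbol and 27363 probe sets in all. No filter on low values was applied, so all 45 entered every comparison. Oas3, Gbp1, Gbp4, Ddx58 (Rigi), Eif2ak2, Parp12, Parp14, Xaf1 and Ifnar2 were not analysed here.

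The samples were rat 9L gliosarcoma, a line that grows in its syngeneic host, the Fischer 344 rat. Hypoxic tumour regions were areas that stained for EF5, a 2-nitroimidazole that binds in cells short of oxygen, cut by laser capture from 3 tumours of male Fischer 344 rats, given as 6 weeks old. Normoxic tumour regions were EF5-negative areas of the same 3 tumours, so each tumour gave a pair. The cultures were 9L cells held at 0.2% oxygen or at about 20% oxygen for 6 h or for 16 h, and each of these 4 groups held 3 cultures. All 6 groups derive from the same cell line. The labels describe a first subcutaneous tumour and later tumours grown from its pieces on the epigastric vessels, and which of these each captured tumour was is not given. A captured area holds whatever host cells lie in it. Cultures were detached with trypsin before lysis and tumours were not, so tissue and culture differed in handling as well as in kind. From each of the 18 samples, 2 ng of total RNA was amplified and hybridised to a Rat Gene 1.0 ST array, and every level below is a deposited log2 value. The labels do not say that the cultures were separate experiments, so a p-value here reflects only how far these samples spread, which may be technical spread. The number of arrays, 3 a group, limits the precision of every comparison.

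Type I interferons are secreted when cells sense foreign or misplaced nucleic acid. They bind a receptor of the chains Ifnar1 and Ifnar2, whose kinases Jak1 and Tyk2 phosphorylate Stat2. A complex that holds Stat2 and Irf9 enters the nucleus and binds the interferon-stimulated response element, ISRE, in the promoters of antiviral genes. Interferon gamma, a product of T and NK cells, acts on the gamma-activated site, GAS, and induces many of the same genes. In tumours, both malignant cells and infiltrating macrophages, dendritic cells and lymphocytes can carry this programme.

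Promoters are shown first because the ISRE is the element through which the receptor's factors act. RefSeq windows on the GRCr8 assembly, 250 bases before and 50 bases after each gene's start, were found for 33 of the 45 genes. The ISRE letters, GAAA, any 2 bases and GAAA again, read on both strands and with overlaps allowed, were present in 17 of the 33 windows (51.5%), against 3.92% of 33469 promoters of the same length. The GAS letters, TTC, any 3 bases and GAA, were present in 7 of the 33 (21.2%), against 8.87% of all promoters, and 5 genes held both. A match is a description of letters and not a binding site, and the absence of a match says only that these letters are not in this window. Mx1, Herc6 and Tlr3, described below, had a window with neither. The windows printed here are those of genes named by the rule on calls and smallest p-values that hold the ISRE letters, which stand in capitals. Each is written 5′ to 3′ on the strand of the gene.

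Gbp2, chr2:234005477-234005776, plus strand: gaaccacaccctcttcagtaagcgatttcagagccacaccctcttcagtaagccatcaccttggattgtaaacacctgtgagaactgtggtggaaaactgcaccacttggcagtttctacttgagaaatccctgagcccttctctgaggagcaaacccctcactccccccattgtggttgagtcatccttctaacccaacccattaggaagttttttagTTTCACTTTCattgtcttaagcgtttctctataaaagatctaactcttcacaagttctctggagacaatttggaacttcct
Gbp5, chr2:233910749-233911048, plus strand: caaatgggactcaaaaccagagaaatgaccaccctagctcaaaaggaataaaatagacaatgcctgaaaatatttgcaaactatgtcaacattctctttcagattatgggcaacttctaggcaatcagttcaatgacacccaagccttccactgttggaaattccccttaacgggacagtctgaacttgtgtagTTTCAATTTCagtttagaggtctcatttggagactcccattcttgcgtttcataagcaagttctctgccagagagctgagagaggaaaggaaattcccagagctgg
Ifi44, chr2:243303791-243304090, minus strand: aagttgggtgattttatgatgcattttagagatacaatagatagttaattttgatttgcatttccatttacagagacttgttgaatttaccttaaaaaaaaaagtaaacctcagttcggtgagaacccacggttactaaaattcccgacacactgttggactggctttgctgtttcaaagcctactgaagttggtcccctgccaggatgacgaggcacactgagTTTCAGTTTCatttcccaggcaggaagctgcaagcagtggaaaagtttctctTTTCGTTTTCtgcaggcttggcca
Ifi44l, chr2:243328473-243328772, plus strand: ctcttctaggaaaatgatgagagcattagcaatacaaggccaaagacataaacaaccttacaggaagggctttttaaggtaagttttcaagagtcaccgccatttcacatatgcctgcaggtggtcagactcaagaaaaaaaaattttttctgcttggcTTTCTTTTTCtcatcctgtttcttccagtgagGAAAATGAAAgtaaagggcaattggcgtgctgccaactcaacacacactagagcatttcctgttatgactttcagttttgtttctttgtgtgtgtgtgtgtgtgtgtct
Ifit3, chr1:241527076-241527375, plus strand: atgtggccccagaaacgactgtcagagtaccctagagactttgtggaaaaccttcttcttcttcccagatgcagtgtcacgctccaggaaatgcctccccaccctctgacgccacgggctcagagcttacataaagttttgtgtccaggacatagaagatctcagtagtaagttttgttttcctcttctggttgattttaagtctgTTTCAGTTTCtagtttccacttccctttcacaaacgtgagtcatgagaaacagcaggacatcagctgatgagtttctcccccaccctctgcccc
Oasl2, chr12:47383136-47383435, minus strand: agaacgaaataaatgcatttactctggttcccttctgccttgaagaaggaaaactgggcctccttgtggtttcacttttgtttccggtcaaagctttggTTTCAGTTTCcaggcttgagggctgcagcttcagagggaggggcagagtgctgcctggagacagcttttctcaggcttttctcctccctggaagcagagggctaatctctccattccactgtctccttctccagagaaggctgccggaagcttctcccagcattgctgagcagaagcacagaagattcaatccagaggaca

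Counted from the gene start, the match spanned bases -31 to -22 in Gbp2, -56 to -47 in Gbp5, -44 to -35 in Ifit3 and -151 to -142 in Oasl2. Ifi44 and Ifi44l each held 2 matches. Those of Ifi44 spanned bases -26 to -17 and 26 to 35, and those of Ifi44l bases -91 to -82 and -59 to -50. Ifi44 and Ifi44l are neighbours on chromosome 2 with no coding gene between them, as are Ifit2 and Ifit3 on chromosome 1 and Oasl and Oasl2 on chromosome 12. Gbp5 and Gbp2 lie on chromosome 2 with 2 coding genes between them. No 2 of the 45 genes had identical values, but whether probes of such related genes bind each other's transcripts was not tested.

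**Figure D1:**
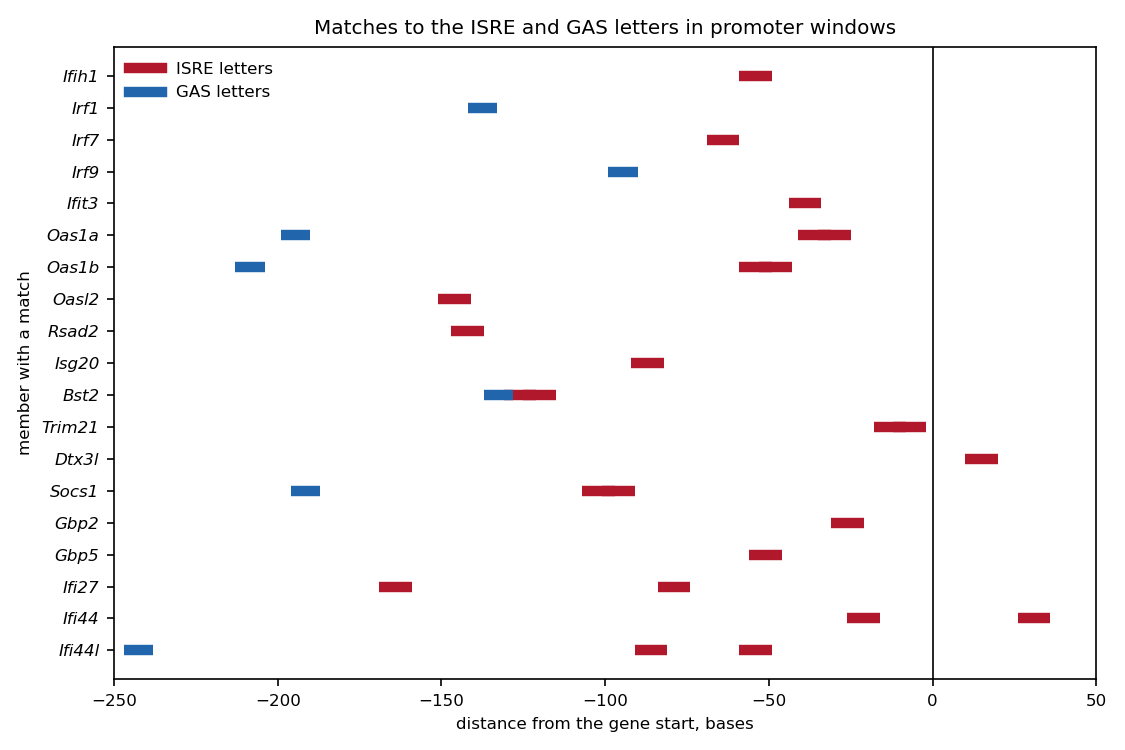
Matches to the ISRE letters (red) and to the GAS letters (blue) in the 300-base promoter windows of the genes that hold at least 1. The x axis is the distance from the gene start in bases and the vertical line is the start. In each of the 5 genes that hold both kinds, the GAS match begins farther upstream than the ISRE matches. In Bst2 the GAS match and an ISRE match overlap.

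The labels of the arrays were checked with 7 targets of hypoxia-inducible factor. All 7 were higher in hypoxia in each of the 9 pairs. Car9, a carbonic anhydrase, was higher by 1.94 log2 in hypoxic tumour regions, by 1.60 in 6 h cultures and by 1.54 in 16 h cultures. Arrays of one group correlated at 0.937 to 0.964 in tumours and at 0.988 to 0.996 in cultures. The normoxic array of tumour 3 stood apart. Its values had an SD of 1.92, against 1.76 to 1.79 on the other tumour arrays, and 27 of the interferon genes lay above its upper quartile, against 18 and 14 on the normoxic arrays of tumours 1 and 2. The main tumour results are therefore given with and without tumour 3.

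In the tumours, the interferon genes were mostly lower in the hypoxic region, but none passed the test. Of 45 genes, 39 had a lower mean in hypoxic than in normoxic regions, against 35.2% of all probe sets. The median difference of the genes was -0.52 log2, against 0.10 over all probe sets, and single genes ranged over -2.32 to 0.38. By tumour the median was -0.44, -0.26 and -1.08 in tumours 1, 2 and 3, and 32, 35 and 42 of the 45 genes were lower. Lower in all 3 tumours were 25 genes (55.6%), against 11% of all probe sets, and higher in all 3 were 0, against 22.9%. In bulk RNA, fewer cells of a type and less RNA per cell cannot be told apart.

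The test was limma with the tumour as a block, adjusted by Benjamini-Hochberg over all 27363 probe sets. At an adjusted p of 0.05 it called 0 interferon genes and 0% of all probe sets, and the smallest adjusted p of any probe set was 0.106. At an unadjusted p under 0.05, 17 of the 45 genes (37.8%) were lower, against 5.7% of all probe sets, and 0 were higher, against 3.42%. Without tumour 3, 11 genes were lower at that level and the median was -0.31, against 0.04 over all probe sets. The share of all probe sets at that level without tumour 3 was not counted, so the 11 are not shown to exceed it. The groups did not overlap, with all 3 hypoxic regions below all 3 normoxic ones, in 15 genes (33.3%), against 4.62% of all probe sets. The adjusted calls were 11 with the spread taken over all 18 arrays, against 1408 of all 27363 probe sets. That fit shares its spread with the cultures, whose median SD within groups was 0.157, against 0.25 in tumours. It may therefore understate the spread of the tumours. Without tumour 1 the adjusted calls were 5, against 563 of all probe sets. That fit rests on the pairs of the other tumours alone.

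**Figure D2:**
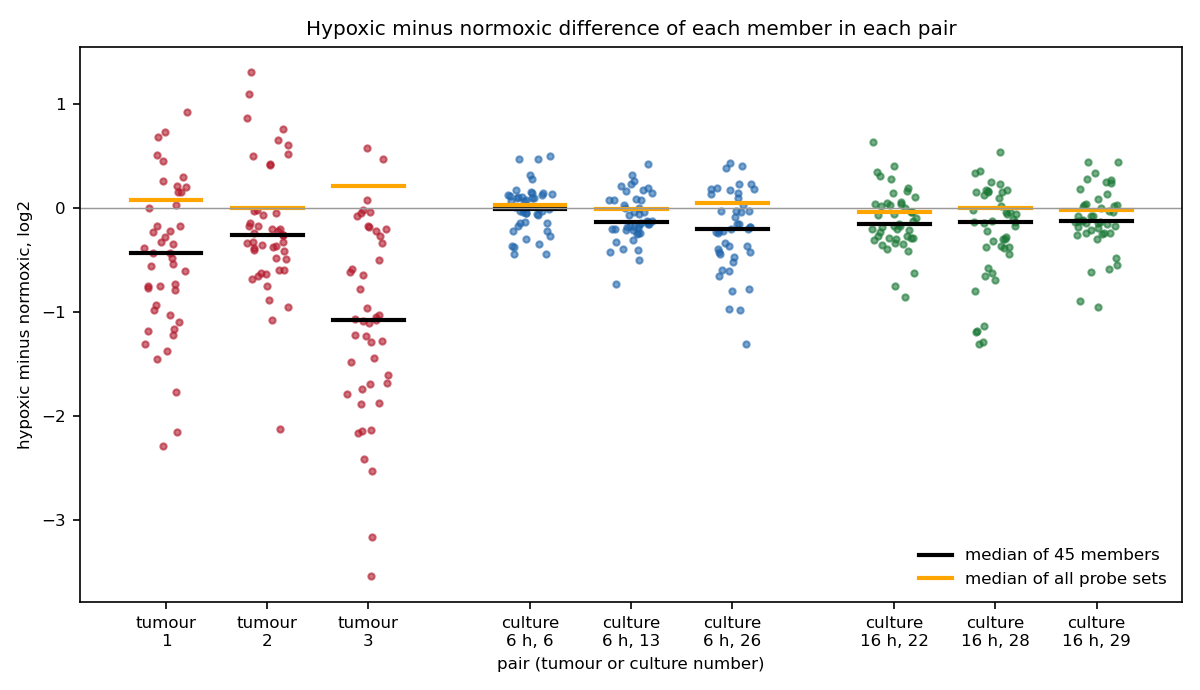
Hypoxic minus normoxic log2 difference of each of the 45 interferon genes (points) in the 3 tumours and in the 6 numbered cultures. Black bars are the medians of the genes and orange bars those of all probe sets. The tumour medians of the genes are -0.44, -0.26 and -1.08, and the tumour points spread farther than those of the cultures.

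The receptor chain Ifnar1, the only receptor gene measured, had 6.21, 6.63 and 6.85 in hypoxic regions, against 6.96, 7.22 and 7.08 in normoxic regions. The groups did not overlap, and the difference was -0.52 ± 0.20 (SE, unadjusted p = 0.0374, limma adjusted p = 0.518). In cultures Ifnar1 differed by 0.12 at 6 h and by 0.03 at 16 h.

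Sensors of nucleic acid had a median difference of -0.99 in the tumours, and 3 of the 4 were lower at an unadjusted p under 0.05. Tlr3, the endosomal receptor for double-stranded RNA, had 5.82, 5.80 and 5.30 in hypoxic regions of tumours 1 to 3, against 6.81, 6.40 and 7.04 in normoxic regions. All hypoxic values lay below all normoxic ones, 2.16-fold lower on average (-1.11 ± 0.26 log2, adjusted p = 0.308). Zbp1, a sensor of Z-form nucleic acid that can trigger necroptosis, had 6.33, 6.88 and 6.58 in hypoxic regions, against 7.52, 7.23 and 7.66 in normoxic regions. It was 1.83-fold lower (-0.87 ± 0.23, adjusted p = 0.359), again without overlap. Ifih1, which encodes the cytosolic RNA sensor MDA5, had 5.46, 6.26 and 5.45 in hypoxic regions, against 6.56, 6.43 and 7.98 in normoxic regions. The groups were separate, but the normoxic region of tumour 3 was far above the other two, and the difference of -1.26 became -0.63 without tumour 3. Dhx58, which encodes LGP2, a regulator of the RNA sensors, differed by -0.24 ± 0.35, and by 0.16 without tumour 3.

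Of the 8 transcription factors, 0 reached an unadjusted p of 0.05 in the tumours, and their median difference was -0.38. Stat2, a factor that the receptor's kinases phosphorylate, differed by -0.89 ± 0.41 (unadjusted p = 0.0739). Its hypoxic values were 6.93, 8.63 and 6.83, against 8.31, 8.22 and 8.53 in normoxic regions, so tumour 2 went the other way. Irf9, the DNA-binding partner of Stat2, differed by -0.43 ± 0.24, Irf7, an amplifier of interferon production, by -0.33 ± 0.20, and Irf1, an activator of many of the same promoters, by -0.43 ± 0.32. Irf2, a repressor of Irf1 targets, was higher in sign at 0.25. Without tumour 3 the differences were -0.48 in Stat2, -0.17 in Irf9, -0.21 in Irf7, -0.090 in Irf1 and 1.02 in Irf2.

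Among the 10 genes of the OAS, MX and IFIT families, the direct antiviral effectors, Mx1, Oasl2 and Ifit2 were lower at an unadjusted p under 0.05 and the median was -0.53. Mx1, a dynamin-like GTPase that blocks viral replication, had 5.40, 5.42 and 5.74 in hypoxic regions, against 6.43, 6.50 and 8.16 in normoxic regions. No hypoxic region reached the lowest normoxic one, and the difference was 2.84-fold (-1.51 ± 0.31, adjusted p = 0.268). Oasl2, an oligoadenylate synthetase-like protein, had 6.26, 6.73 and 6.77 in hypoxic regions, against 7.72, 7.41 and 8.91 in normoxic regions. It too was separate between regions, 2.69-fold lower (-1.43 ± 0.30, adjusted p = 0.268). Ifit2, which binds viral RNA, was separate between regions at -0.79 ± 0.25. Its neighbour Ifit3, of the same family, overlapped, with 5.62, 5.97 and 6.22 in hypoxic regions, against 6.16, 5.32 and 8.10 in normoxic regions. The Ifit3 difference of -0.59 ± 0.45 became 0.06 without tumour 3. Oasl and Ifit1 were higher in sign, at 0.21 and 0.17, but Ifit1 lay under the lower quartile on 4 of the 6 tumour arrays.

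Samd9l, an interferon-induced protein that restricts poxviruses, had the lowest difference of the 45 genes. Its hypoxic regions had 4.03, 4.16 and 4.14, against 5.34, 6.28 and 7.68 in normoxic regions. The 3 hypoxic values were close to each other while the normoxic values spread over more than 2 log2 units. All 3 hypoxic values lay under the lower quartile of their array and no normoxic one did. Whether they were above background was not tested, so the size of the fold is uncertain. The difference was 5.01-fold (-2.32 ± 0.41, adjusted p = 0.219), and -1.72 without tumour 3. The other 5 genes of this antiviral group did not reach an unadjusted p of 0.05. Bst2, which encodes tetherin, differed by -0.58 ± 0.37 and by -0.022 without tumour 3. Rsad2, which encodes viperin, was higher in sign at 0.38, and at 0.60 without tumour 3. It lay under the lower quartile on 5 of the 6 tumour arrays, so this direction is uncertain.

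Of the 8 genes of the ISG15, ubiquitin, ADP-ribose and feedback group, Herc6, Trim21 and Parp9 were lower at an unadjusted p under 0.05. Trim21, an E3 ligase and intracellular antibody receptor, differed by -0.57 ± 0.22, and Parp9, the partner of the E3 ligase Dtx3l, by -0.66 ± 0.25. Without tumour 3 the differences were -0.34 in Trim21 and -0.35 in Parp9. Herc6, the E3 ligase that attaches ISG15 in mice, had 5.11, 5.25 and 4.46 in hypoxic regions, against 5.86, 5.88 and 6.07 in normoxic regions. The regions did not overlap and the difference was 1.99-fold (-0.995 ± 0.25, adjusted p = 0.335), with all 3 hypoxic values under the lower quartile of their array. Isg15, the ubiquitin-like modifier itself, overlapped, with 7.10, 8.29 and 9.37 in hypoxic regions, against 7.90, 7.43 and 9.87 in normoxic regions. The Isg15 difference of -0.14 ± 0.34 became 0.04 without tumour 3. The feedback genes Usp18, which removes ISG15 and dampens the receptor, and Socs1, an inhibitor of the JAK kinases, were higher in sign at 0.26 and 0.30.

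Both guanylate-binding proteins measured, GTPases of cell-autonomous defence that also respond to interferon gamma, were among the 10 lowest p-values. Gbp2 had 6.93, 7.76 and 8.07 in hypoxic regions, against 9.08, 8.51 and 9.95 in normoxic regions. It was separate and 3.02-fold lower (-1.60 ± 0.30, adjusted p = 0.241). Gbp5 had 6.19, 6.98 and 7.48 in hypoxic regions, against 7.96, 7.30 and 9.64 in normoxic regions. It overlapped by tumour 3's hypoxic value, though each tumour had the lower value in its own hypoxic region, by 2.68-fold on average (-1.42 ± 0.36, adjusted p = 0.341).

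Of the 6 other induced genes, Ifi44, Ifi44l, Rtp4 and Sp100 were lower at an unadjusted p under 0.05. Ifi44l had 3.98, 4.05 and 3.83 in hypoxic regions, against 5.14, 4.93 and 6.99 in normoxic regions, a 3.33-fold difference (-1.74 ± 0.44, adjusted p = 0.341). Its neighbour Ifi44 had 6.74, 7.07 and 6.90 in hypoxic regions, against 7.95, 7.47 and 8.34 in normoxic regions, a 2.03-fold difference (-1.02 ± 0.25, adjusted p = 0.328). In both genes the hypoxic regions were all below the normoxic ones. In Ifi44l all 3 hypoxic and 2 normoxic values lay under the lower quartile of their array. Sp100, a component of PML nuclear bodies, had 7.64, 8.66 and 8.76 in hypoxic regions, against 9.93, 9.00 and 9.996 in normoxic regions. It was the only one of the 4 whose difference, -1.28 ± 0.37, was no smaller without tumour 3 (-1.31). For other genes given on every array the tumour difference without tumour 3 was -1.45 in Gbp2, -1.07 in Oasl2, -1.05 in both Mx1 and Gbp5, -1.02 in Ifi44l, -0.81 in Ifi44, -0.79 in Tlr3, -0.77 in Zbp1 and -0.69 in Herc6. All of these kept their direction.

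**Figure D3:**
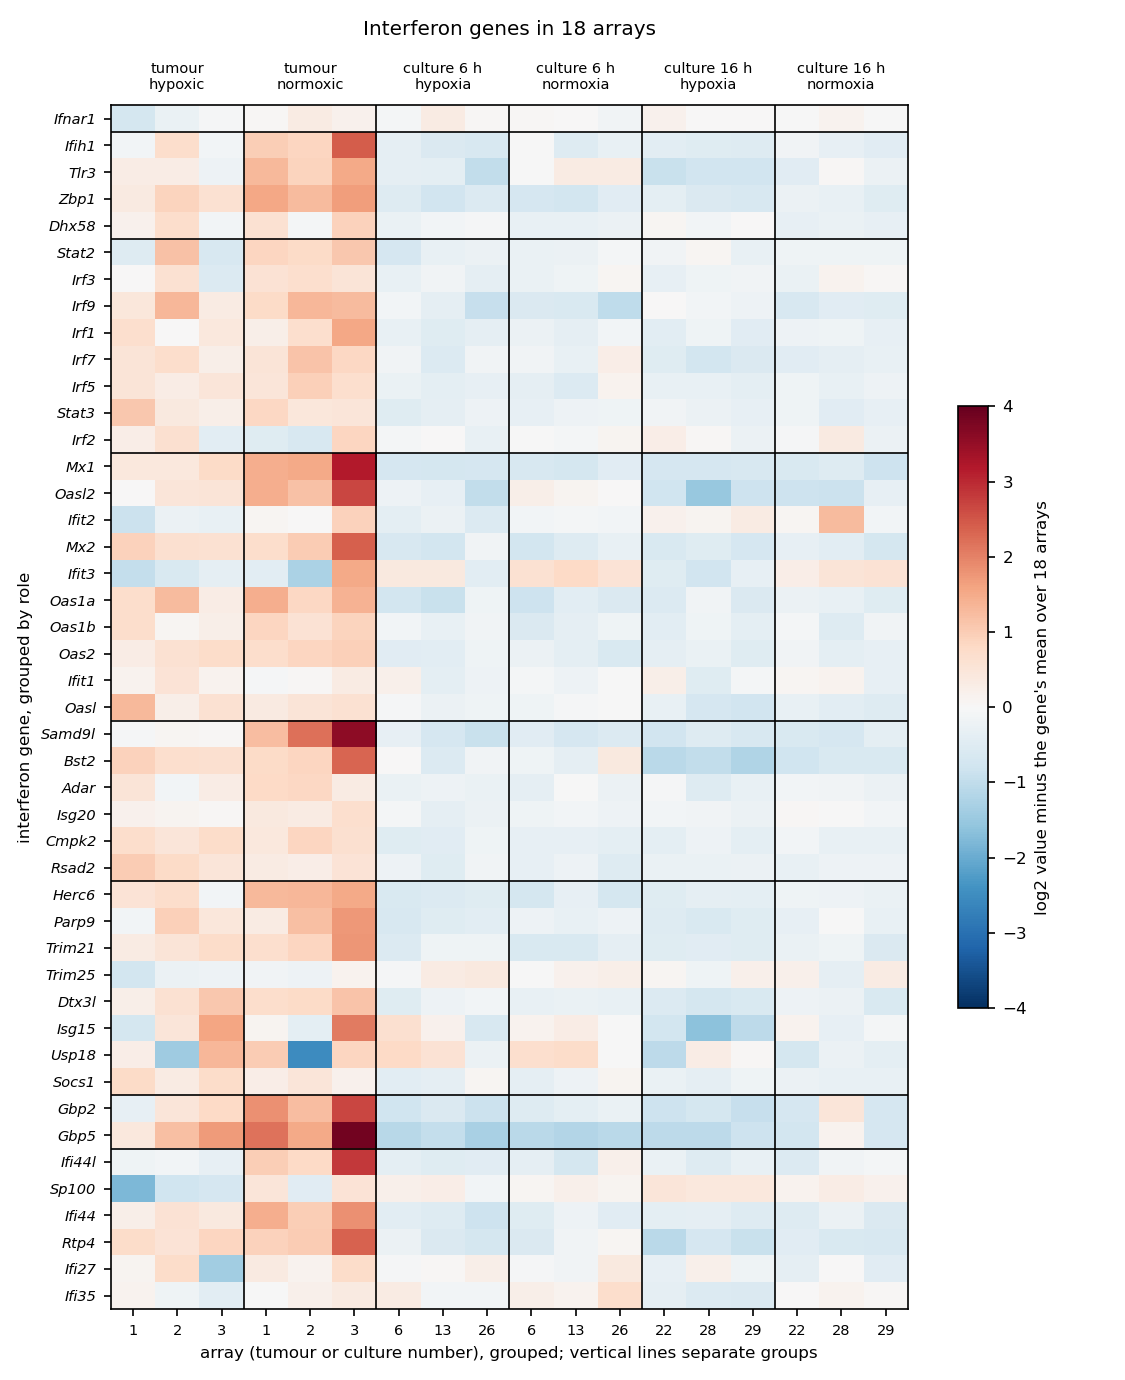
Log2 value of each interferon gene (rows, grouped by role) on each of the 18 arrays (columns), minus the mean of the gene over all arrays. Red is above and blue below that mean. The 3 normoxic tumour arrays are the reddest block, tumour 3 most of all, with Mx1, Samd9l, Gbp5, Gbp2 and Ifi44l standing out.

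Markers of macrophages and lymphocytes were mostly lower in the same hypoxic regions, with 0 past the threshold. The 15 macrophage markers measured had a mean of 7.46 to 7.92 in hypoxic regions, against 8.13 to 8.47 in normoxic regions, and 12 of the 15 were lower, 4 of them (C1qa, Fcgr1a, Ctss and Laptm5) at an unadjusted p under 0.05. The 15 T and NK cell markers had a mean of 6.04 to 6.26 in hypoxic regions, against 6.38 to 7.44 in normoxic regions, and 13 were lower, 6 at that level, Cd3d, Cd3e and Cd3g among them. The mean of the 45 interferon genes was 6.66 to 6.84 in hypoxic regions, against 7.04 to 7.82 in normoxic regions. Of the 6 fibroblast and pericyte markers 5 were lower (median -0.28, Pdgfra at that level), and of the 4 endothelial markers 3 (median -0.13). Of the 7 neutrophil markers 1, Fcnb, was lower, and the median was 0.19. The median was 0.05 over the 6 dendritic cell markers, 0.17 over the 7 glial and neural stem cell markers and 0.23 over the 2 B cell markers. The part of these markers in the interferon result was not tested. In the cultures the macrophage markers averaged 5.20 to 5.41 and the T and NK markers 5.03 to 5.37, below the array medians of 6.02 to 6.19.

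In cells held at 0.2% oxygen for 6 h, the interferon genes shifted little. The median difference was -0.07, against 0.01 over all probe sets, and 32 of 45 genes were lower in sign, against 45.8%. With limma over the 12 culture arrays, 0 genes passed the adjusted threshold in either direction, against 0.00731% of all probe sets lower and 0.183% higher. At an unadjusted p under 0.05, 4 genes (8.89%) were lower, against 2.03%, and 0 higher, against 3.11%. They were Tlr3, Ifit3, Oasl2 and Parp9. Tlr3 had 5.15, 5.11 and 4.54 at 0.2% oxygen, against 5.50, 5.85 and 5.85 at about 20%. All 3 hypoxic cultures were below all normoxic ones, 1.74-fold on average (-0.80 ± 0.17, adjusted p = 0.126). Oasl2 had 6.06, 5.94 and 5.28 in hypoxia, against 6.50, 6.37 and 6.26 in normoxia (-0.62 ± 0.22, adjusted p = 0.818).

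After 16 h, 1 interferon gene passed the threshold, in the lower direction. Ifit3 had 6.11, 5.81 and 6.25 in hypoxia, against 6.86, 7.10 and 7.15 in normoxia. Each hypoxic culture was below each normoxic one, by 1.97-fold on average (-0.98 ± 0.19, adjusted p = 0.0356). At 6 h Ifit3 had 6.96, 6.98 and 6.15 in hypoxia, against 7.19, 7.38 and 7.12 in normoxia (-0.53 ± 0.19, adjusted p = 0.821). The single call is 2.22% of the 45, against 0.102% of all probe sets, and 0 genes rose, against 0.603%. Ifit3 missed the threshold under quantile, cyclic loess and median scaling (limma adjusted p = 0.0533, 0.0674 and 0.0824) and with the spread over all 18 arrays. It also missed it in 5 of the 6 fits that each left out 1 of its arrays (0.082 to 0.16).

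With the culture number as a block, Ifit3 and Isg15 both passed at 16 h, with adjusted p-values of 0.019 and 0.0276. Of all probe sets, 268 then passed, against 193 without the block. Isg15 had 7.07, 6.16 and 6.77 in hypoxia at 16 h, against 7.93, 7.46 and 7.72 in normoxia. The groups were separate and differed 2.06-fold (-1.04 ± 0.28, adjusted p = 0.139 without the block). At 6 h Isg15 had 8.43, 7.96 and 7.16 in hypoxia, against 7.93, 8.10 and 7.78 in normoxia, and the groups overlapped. The Isg15 response at 16 h minus that at 6 h was -0.95 ± 0.39 (unadjusted p = 0.0285, limma adjusted p = 0.982). It was the only one of 45 genes at that level, against 2.4% of all probe sets lower and 1.96% higher, and 0 genes passed the adjusted threshold, against 0% of all probe sets.

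Over the list, the 16 h shift was again small, with a median of -0.10, against -0.03 over all probe sets. At an unadjusted p under 0.05, 8 genes (17.8%) were lower, against 3.79%, and 3 (6.67%) higher, against 4.41%. The lower ones were Tlr3, Ifit3, Bst2, Isg15, Parp9, Gbp2, Gbp5 and Ifi35, and the higher ones Dhx58, Irf9 and Sp100. The T and NK cell markers, low in these cultures, had a median of -0.12 at 16 h. Of these 15 markers, 14 were lower in hypoxia, 4 of them at that level. Of the 15 macrophage markers 7 were lower, 1 of them at that level, and the median was 0.002. The bearing of these markers on the interferon shift was not tested. Tlr3 had 4.63, 4.76 and 4.74 in hypoxia, against 5.05, 5.56 and 5.29 in normoxia, so it was separate at both times and in the tumours. Its 16 h difference was 1.51-fold (-0.59 ± 0.17, adjusted p = 0.201). All 3 hypoxic Tlr3 values at 16 h lay under the lower quartile of their array. So did 1 hypoxic value at 6 h and 1 in the tumours, so the size of these folds is uncertain. Gbp5 had 4.73, 4.72 and 4.95 in hypoxia, against 5.04, 5.91 and 5.10 in normoxia (-0.55 ± 0.19, adjusted p = 0.337). Gbp2 had 6.43, 6.57 and 6.34 in hypoxia, against 6.61, 7.75 and 6.59 in normoxia (-0.54 ± 0.23, adjusted p = 0.561). In both GBP genes the normoxic culture 28 was well above the other two, and without it the differences were -0.27 in Gbp5 and -0.16 in Gbp2. Ifi35, a leucine zipper protein, differed by -0.57 ± 0.15 (adjusted p = 0.142), while Irf9 was higher by 0.42 ± 0.18 (adjusted p = 0.536).

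**Figure D4:**
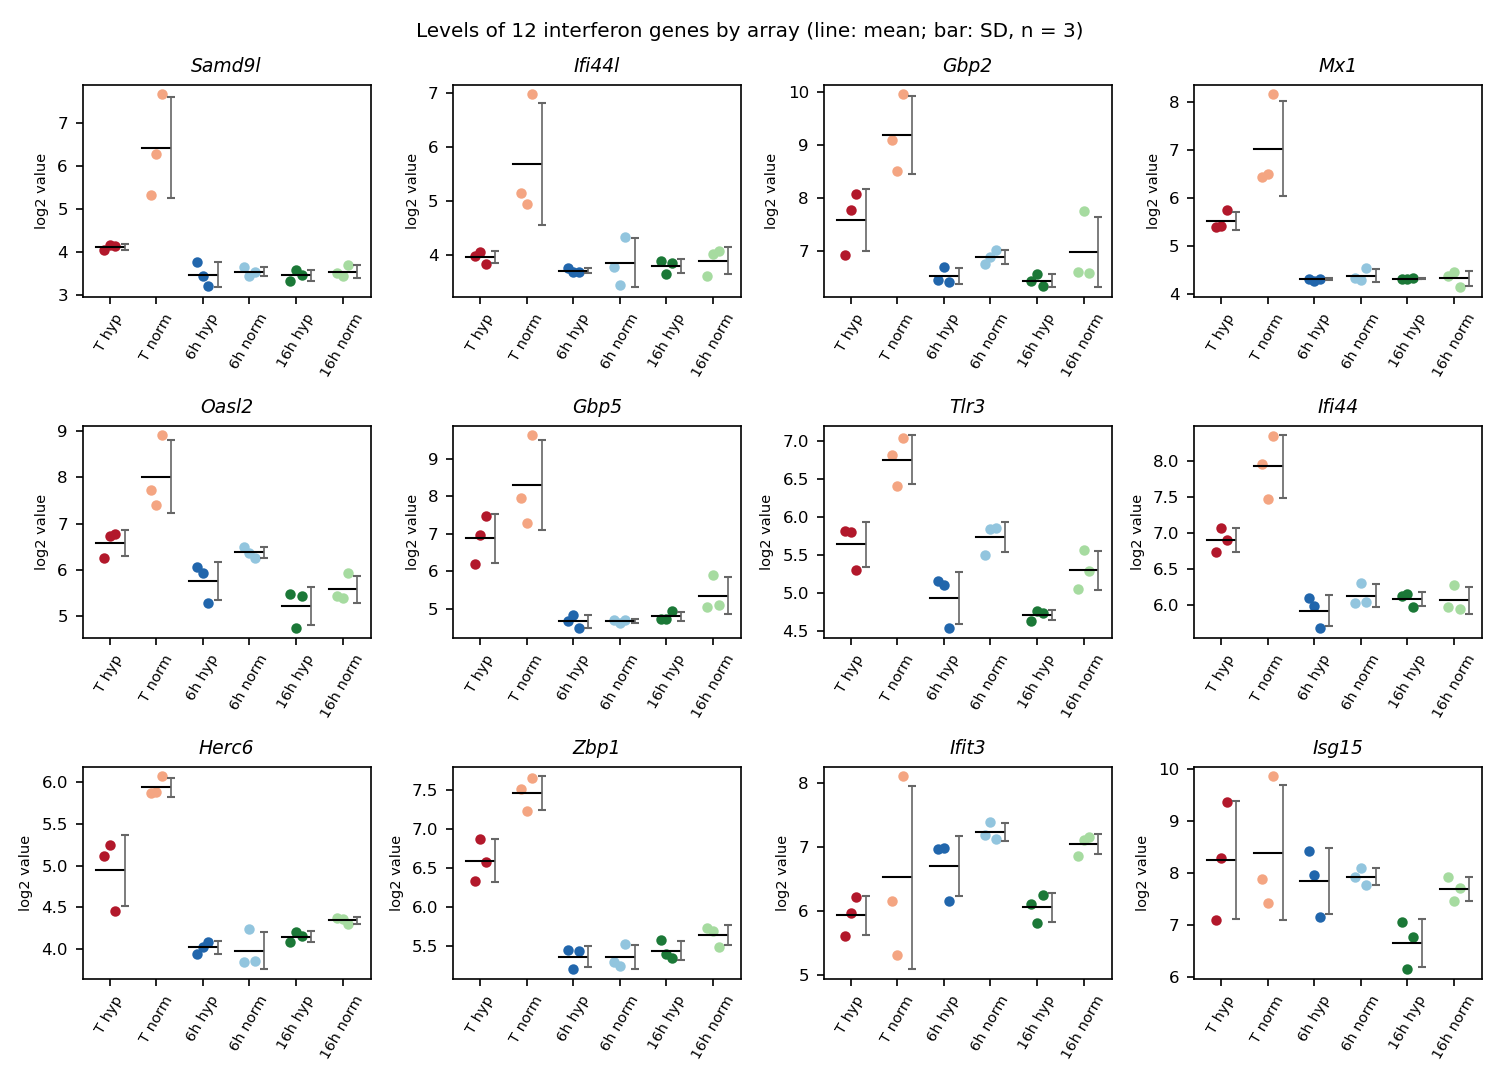
Log2 value on each array of 12 interferon genes in hypoxic (T hyp) and normoxic (T norm) tumour regions, in 6 h cultures (6h hyp, 6h norm) and in 16 h cultures (16h hyp, 16h norm). Points are arrays, lines are means and bars are the SD (n = 3). Samd9l, Ifi44l and Mx1 are low in all culture groups and separate the tumour regions, while Ifit3 and Isg15 separate the 16 h cultures.

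The time in culture was also compared without hypoxia. In normoxic cultures, 0 of the 45 genes passed the adjusted threshold between 16 h and 6 h, against 2.45% of all probe sets lower and 2.41% higher. At an unadjusted p under 0.05, 6 were lower at 16 h (Tlr3, Oasl, Oasl2, Bst2, Usp18 and Rtp4), against 10.5% of all probe sets, and 3 were higher (Zbp1, Herc6 and Gbp5), against 11.5%. Oasl2 had 5.43, 5.39 and 5.92 in normoxia at 16 h, against 6.50, 6.37 and 6.26 in normoxia at 6 h. All normoxic 16 h values of Oasl2 were below all normoxic 6 h ones, and its hypoxic cultures at 16 h had 5.47, 4.74 and 5.44.

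The difference in the tumours was then set against that in the cultures. In limma over all 18 arrays with the 9 pairs as blocks, the tumour difference minus the mean culture difference had a median of -0.41 over the interferon genes, against 0.10 over all probe sets. The test called 2 genes (4.44%), Mx1 and Samd9l, lower, against 0.987% of all probe sets, and 0 higher, against 0.179%. Samd9l differed by -2.25 ± 0.39 (adjusted p = 0.0295). Its culture values, 3.19 to 3.77 in hypoxia and 3.43 to 3.70 in normoxia, did not separate at either time. Mx1 differed by -1.46 ± 0.28 (adjusted p = 0.0442). It had 4.29 to 4.33 in hypoxic cultures and 4.15 to 4.55 in normoxic cultures. Both genes lay under the lower quartile on all 12 culture arrays, so a fall in culture could hardly be measured, and the test rests chiefly on the tumour difference. At an unadjusted p under 0.05, 15 genes (33.3%) were lower, against 7.73%, and 0 higher, against 8.84%. Tumour arrays spread more than culture arrays, with a median SD within groups of 0.25, against 0.157. Under quantile, cyclic loess and median scaling Mx1 was not called (0.0551 to 0.0595). With separate spreads the adjusted p was 0.0442 for Samd9l and 0.0751 for Mx1, and leaving out any 1 of the 6 culture pairs ended both calls (0.0638 to 0.121). Without tumour 3 both were called, Samd9l at -1.64 (0.0115) and Mx1 at -1.01 (0.0132), and the median over the interferon genes was -0.14.

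Genes lower in tissue and genes lower in culture overlapped in part. Of the 17 genes lower in the tumours at an unadjusted p under 0.05, 5 were lower in culture at either time (29.4%). They make up 55.6% of the 9 genes lower in culture. Of all 45 genes 20% were lower in culture and 37.8% in the tumours, and over all probe sets the overlap was 11.7% of those lower in the tumours and 12.3% of those lower in culture. These 5 were Tlr3, Oasl2, Parp9, Gbp2 and Gbp5, whose tumour-minus-culture differences were not past the adjusted threshold. Samd9l, Mx1, Ifi44, Ifi44l, Herc6 and Zbp1 were at that level in the tumours and not in culture, with culture differences of -0.07, -0.08, -0.21, -0.15, 0.04 and 0.01 at 6 h. At 16 h the same genes, in the same order, differed by -0.09, -0.01, 0.02, -0.10, -0.20 and -0.20. Ifnar1, Ifih1, Ifit2, Trim21, Rtp4 and Sp100 were likewise lower at that level in the tumours and not lower at it in culture. Samd9l, Mx1, Ifi44l and Herc6 lay under the lower quartile on all 12 culture arrays, where a fall could hardly be measured, while Ifi44 and Zbp1 lay above it on all 12. Ifit3 and Isg15 were at that level in culture and not in the tumours, and their tumour-minus-culture differences were 0.17 ± 0.44 and 0.42 ± 0.36. Bst2 and Ifi35 were also lower at that level in culture and not in the tumours. An effect at that level in one setting and not in the other is not shown to differ between them.

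**Figure D5:**
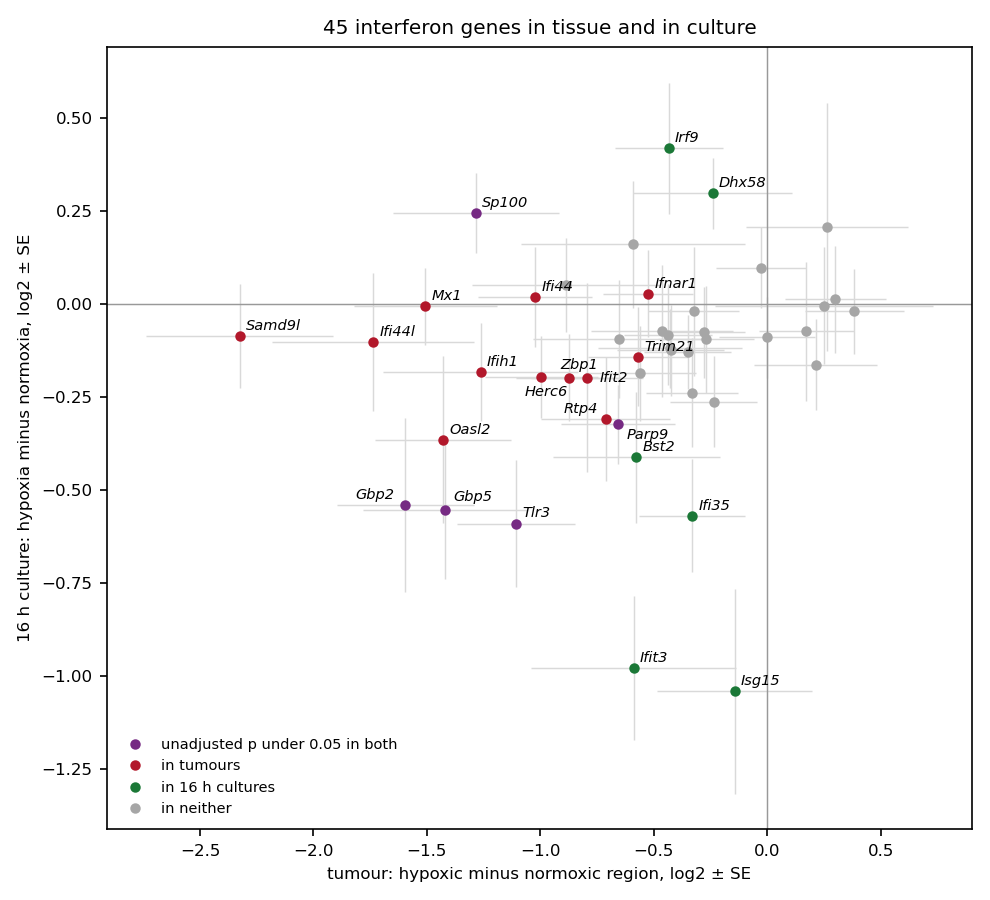
Hypoxic minus normoxic log2 difference of each interferon gene in the tumours (x axis) and in 16 h cultures (y axis), with SE bars from limma. Colours mark an unadjusted p under 0.05 in both, in the tumours, in the cultures or in neither. Samd9l, Ifi44l and Mx1 lie far left near 0 on the y axis, Ifit3 and Isg15 lie low, and Tlr3, Gbp2 and Gbp5 are low on both.

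Most of the interferon genes had higher levels in tissue than in culture. In normoxia, 34 of the 45 genes (75.6%) were higher in the tumour regions than in the cultures, against 43.6% of all probe sets, and 0 were lower, against 20.7%. The median difference was 1.05, against 0.24 over all probe sets. Scaling moved both, to 0.88 against 0.01 under cyclic loess and to 0.73 against -0.07 under median centring. The highest was Gbp5, 9.77-fold higher, followed by Samd9l at 7.45-fold, Mx1 at 6.35-fold, Gbp2 at 4.74-fold and Oasl2 at 4.10-fold, all with limma adjusted p-values of 2.41e-05 or less. Samd9l and Mx1 lay under the lower quartile on all 12 culture arrays and Gbp5 on 7 of the 12, so the size and order of these folds are uncertain. The 11 genes not called were Ifnar1, Irf2, Ifit1, Ifit2, Ifit3, Isg15, Usp18, Trim25, Ifi27, Ifi35 and Sp100. Ifit3 averaged 6.52 in normoxic regions and 7.13 in normoxic cultures, and Isg15 averaged 8.40 in normoxic regions and 7.82 in normoxic cultures. In all 12 culture arrays, Mx1, Oas1a, Oas1b, Oas2, Rsad2, Samd9l, Herc6 and Ifi44l lay under the array's lower quartile. In all 6 tumour arrays 0 genes did. Cell mix, handling and any separate normalization cannot be told apart in this comparison.

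Of 74 further genes of the interferon pathway, 50 were measured. In the tumours 17 of the 50 (34%) were lower at an unadjusted p under 0.05, against 5.7% of all probe sets, and 1 (2%), Tdrd7, was higher, against 3.42%. Cxcl9, a chemokine typical of interferon gamma, had 9.01, 8.89 and 7.46 in hypoxic regions, against 10.58, 10.25 and 10.91 in normoxic regions. It was separate and 4.37-fold lower (-2.13 ± 0.42, limma adjusted p = 0.251), and its cultures lay at 4.27 to 5.13. Without tumour 3 the Cxcl9 difference was -1.47. Ifitm3, a block to viral entry, differed by -1.49 ± 0.28, and Ikbke, a kinase that activates Irf3, by -1.14 ± 0.24. In the cultures at 6 h, 3 of the 50 (6%) were lower at that level, against 2.03% of all probe sets, namely Tap1 (-0.42), Cxcl10 (-0.65) and Psmb8 (-0.32), and none passed the adjusted threshold.

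At 16 h, 12 of the 50 (24%) were lower, against 3.79% of all probe sets, and 2 (4%) higher, Ifitm1 and Pias1, against 4.41%. Cxcl10, a chemokine of both interferon types, passed the test. It had 8.21, 7.49 and 8.45 in hypoxia, against 9.37, 9.27 and 9.24 in normoxia. Every hypoxic culture was below every normoxic one, by 2.36-fold (-1.24 ± 0.22, limma adjusted p = 0.0189). Leaving out any of 4 of the 6 arrays ended the call (adjusted p = 0.0507 to 0.104), as did the spread over all 18 arrays (0.309). The next by p, Zc3hav1 at -0.55 and Psmb8 at -0.45, did not pass. In the tumours Cxcl10 had 8.34, 7.46 and 6.94 in hypoxic regions, against 9.01, 8.81 and 9.73 in normoxic regions. It was separate there too (-1.60 ± 0.40, adjusted p = 0.333), and the difference was -1.01 without tumour 3. Ikbke (-1.33, adjusted p = 0.02) and Irf8, a factor of myeloid cells (-0.78, adjusted p = 0.0446), passed the test of the tumour difference minus the mean culture difference, though neither did with separate spreads (0.0649 and 0.192). Leaving out a culture pair ended the Ikbke call in 5 of 6 fits (0.0556 to 0.0714) and the Irf8 call in all 6 (0.0772 to 0.128). In normoxic cultures Ifitm1 (-0.65) and Il10rb (-0.51) were lower at 16 h than at 6 h, with adjusted p-values of 0.0251 and 0.0244 that rose to 0.0607 and 0.0807 under quantile normalization.

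The interferon transcripts themselves did not separate by oxygen in the tumours. Ifnb1 had 5.34, 5.42 and 5.44 in hypoxic regions, against 5.57, 5.19 and 5.19 in normoxic regions, and 4.66 to 5.34 over the cultures. Ifna4 had 6.89, 6.99 and 7.13 in hypoxic regions, against 7.16, 6.98 and 6.64 in normoxic regions. Ifng had 4.71, 4.95 and 5.37 in hypoxic regions, against 4.95, 4.62 and 5.28 in normoxic regions. Of the 3, none reached an unadjusted p of 0.05 between oxygen levels in tumours or cultures. In the tumours Ifnb1 and Ifng lay near or under the lower quartiles of the arrays, 5.14 to 5.41. Whether they were above background was not tested, so a change in them could be missed.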

How the data were processed

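Gene expression was measured in 18 samples on Rat Gene 1.0 ST arrays. The deposited values are log2 intensities per probe set that the authors made with Partek 6.5b and RMA, per the submitters' processing notes. A joint normalization of tumour and culture arrays was not given in the sources used here. Symbols came from the platform annotation, and 44 of the 45 genes matched RefSeq by Entrez ID with 0 symbols updated. The genes, the lists of other pathway genes and cell type markers, and the tests were chosen with earlier results of these data known.

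Differences were tested with limma 3.58.1 in R 4.3.3 (lmFit and eBayes, two-sided, Benjamini-Hochberg over 27363 probe sets, threshold 0.05), and the code was tested on simulated data. Tumour regions were compared over 6 arrays with the tumour as a block. Cultures were compared over 12 arrays in 4 groups, and tissue with culture over all 18. No arrays were identical. Genes given on every array were those past the threshold in an oxygen or time comparison, and the 10 with the smallest unadjusted tumour p among those of one direction in all 3 tumours. Isg15, Ifih1, Stat2, Ifnar1, Sp100, Ifnb1, Ifna4 and Ifng were added after their values were seen, as were the separate spreads of tumours and cultures.

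Regions of the same number come from the same tumour, per the labels. Deviations of same-numbered cultures correlated at 0.125, 0.193 and 0.192 at 6 h and at 0.13, 0.188 and 0.307 at 16 h. All were above 0.1, so culture numbers were also used as a block. At 6 h, however, hypoxic culture 6 correlated more with a culture of another number (0.177). The hypoxic region of tumour 2 also correlated more with another tumour (0.167) than with its own (0.0357). The alternatives were quantile, cyclic loess and median scaling, removal of the dimmest 25% of probe sets, trended and robust variance, the block, the spread over 18 arrays, and leaving out each array or pair.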

Additional observations from a re-analysis of the deposited data

Results flagged for a closer look

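In Mx1 and Samd9l the limma test of the tumour difference minus the mean culture difference passed the threshold, at -1.46 log2 for Mx1 and at -2.25 for Samd9l (adjusted p = 0.0442 and 0.0295). Both genes lay under the lower quartile on all 12 culture arrays, so a culture response could hardly be measured, and the test does not show that the responses differ in kind. Leaving out any 1 culture pair ended both calls (0.0638 to 0.121), and separate spreads ended that of Mx1 (0.0751).

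In 4 further genes every tumour moved one way and every culture of one time the other way, and these differences were not tested one by one. How many of all probe sets did so was not counted, so the 4 are not shown to exceed that share. The tumour difference minus the 6 h culture difference was -0.708 log2 for Irf9, -0.633 for Oas1b and -0.799 for Trim21. Against 16 h cultures it was -0.853 for Irf9 and -1.53 for Sp100. Sp100 had 9.93, 9.88 and 9.88 in hypoxic cultures at 16 h, against 9.58, 9.74 and 9.64 in normoxic cultures, a direction opposite to that in the tumours.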

How the results depend on the processing

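The median of the interferon genes kept its sign in the tumours, at 6 h, at 16 h, between tissue and culture and in the tumour-minus-culture difference under all alternatives run. With the spread taken over all 18 arrays, the tumour calls went to 11 (Tlr3, Zbp1, Mx1, Oasl2, Samd9l, Herc6, Gbp2, Gbp5, Ifi44, Ifi44l and Sp100) and the genes lower at an unadjusted p under 0.05 to 26 in tumours, 1 at 6 h and 2 at 16 h. Of all 27363 probe sets, 1408 were then called in the tumours, against 0 as reported. At 6 h 6 of all probe sets were then called, against 52 as reported, and at 16 h 33, against 193. Leaving out each tumour gave 0 to 5 tumour calls (5 without tumour 1) and 11 to 21 genes at the unadjusted level (11 without tumour 3). Without tumour 1, 563 of all probe sets were called. Leaving out each culture array gave 2 to 6 such genes at 6 h and 4 to 9 at 16 h (4 without normoxic culture 28). The share of all probe sets at the unadjusted level was not counted under these alternatives. The counts of interferon genes at that level are therefore not shown to exceed it. The 16 h call was 0 under quantile, cyclic loess and median scaling and over 18 arrays, 2 with the replicate block, and 0 to 1 with an array left out. Over all probe sets the 16 h calls were 193 as reported and 268 with the replicate block. The 16 h median was -0.07587 (quantile), -0.07531 (loess), -0.06853 (median scaling), -0.1355 (without the dimmest 25%) and -0.1623 to -0.08592 with an array left out. Removing the dimmest 25% of probe sets took out 9 of the interferon genes, so results under it cover only the rest.

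Tumour-minus-culture calls, 2 as reported, were 2 under quantile scaling (Samd9l and Ifi44, with Mx1 at 0.0574) and 1 (Samd9l) under loess, median scaling and separate spreads. The calls were 0 without the dimmest 25%, but this filter removed Mx1 and Samd9l themselves, so it did not test them again. The calls were 7 without the culture block, and 0 to 14 with a pair left out (14 without tumour 2, 0 with any 1 culture pair left out). Higher calls were 0 to 1 (Irf2, without tumour 3), and genes lower at the unadjusted level 12 to 23. The share of all probe sets at that level was not counted here either. Over all 27363 probe sets, the calls in both directions were 319 as reported, 939 without the culture block and 1365 without tumour 2. Tissue against culture, 1 gene (Trim25) was lower under median scaling and 0 to 2 with an array left out (Irf2 and Ifit3, without the normoxic region of tumour 3), and the median was 0.8762 under loess and 0.7336 under median scaling. Between normoxic times, 2 genes (Oasl and Bst2) were lower under median scaling, 1 lower and 1 higher (Bst2 and Gbp5) without the dimmest 25%, 1 higher (Gbp5) with trended and robust variance, and 0 to 1 either way with an array left out.

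Changes of sign occurred only in genes not past the threshold. With a tumour left out, Ifit3 ranged over -1.209 to 0.05634 and Isg15 over -0.6476 to 0.1816 (0.03546 without tumour 3). At 6 h, Zbp1 was -0.03651 (quantile), -0.03937 (loess) and -0.03341 (median scaling), Herc6 -0.0008067 and Sp100 -0.0358 (median scaling). With a 6 h array left out, Zbp1 ranged over -0.04872 to 0.09217, Samd9l -0.2224 to 0.06382, Isg15 -0.3748 to 0.258, Herc6 -0.028 to 0.1658, Gbp5 -0.09292 to 0.07541, Ifi44l -0.3548 to 0.09436 and Sp100 -0.06704 to 0.1187. At 16 h, Mx1 was 0.02541 (quantile), 0.02976 (loess), 0.02756 (median scaling) and -0.09604 to 0.05557 with an array left out, and Ifi44 -0.0447 to 0.1279. The tumour-minus-culture value of Ifit3 was -0.08933 (quantile) and -0.4557 to 0.8101 with a pair left out. The cause of these changes was not tested. The culture replicate block changed no other call, and the mean of several probe sets was not run because each gene had 1.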
